A study of Mus musculus with 15 samples.

Results

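The transcripts of 9 genes that carry the insulin signal from the cell surface to the nucleus were followed in mouse liver: Insr, Irs1, Irs2, Pik3r1, Akt1, Akt2, Foxo1, Foxo3 and Grb10. The genes were chosen by name as the core of the insulin receptor to FOXO pathway, because S6 kinase 1 (S6K1), the kinase deleted in the study, feeds back on the insulin receptor substrates. They are 9 of the 37991 genes in the count table, and all 9 were among the 14258 genes with enough reads to be tested. RNA sequencing covered livers of 15 female mice of the C57BL/6 inbred strain on a chow diet with free access to food, with 5 mice in each of 3 groups: WT mice killed young at 90 days, WT mice aged to 600 days, and mice of that older age lacking S6K1 in the whole body (old KO). WT and KO mice came from heterozygous breeding, each library was labelled as a separate mouse, and young KO mice were not analysed here, so the effect of the deletion could be read only at 600 days. When the livers were taken relative to feeding or to the light cycle was not given in the sources used here.

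Insulin binds its receptor, a tyrosine kinase that phosphorylates the docking proteins IRS1 and IRS2. These recruit phosphoinositide 3-kinase (PI3K), whose lipid product activates the kinases AKT1 and AKT2, and AKT in turn phosphorylates the FOXO transcription factors and holds them outside the nucleus. In the fasted liver FOXO proteins return to the nucleus and switch on genes of glucose production, such as G6pc and Pck1, together with Igfbp1 and Irs2 itself, whereas in the fed state insulin silences these genes and S6K1, downstream of mTORC1, phosphorylates IRS1 and dampens the signal. Much of this control works through phosphorylation, which transcript levels do not record.

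Library totals ranged from 21801754 to 38065359 counts, and the smallest count of any of the 9 genes in any library was 65, for Grb10. Rps6kb1, which encodes S6K1, fell by 1.17 on the log2 scale in old KO against old WT liver (SE 0.0979, edgeR quasi-likelihood test with Benjamini-Hochberg adjustment over all genes tested, adjusted p = 8.54e-06), with no overlap between the 5 libraries of each group, so the labels matched the targeted transcript. Reads were still assigned to the gene in old KO liver, 363 to 449 counts per library against 973 to 1250 in old WT liver. Of the cell type marker lists, the hepatocyte list had the highest summed level in every group (8 of 8 detected, 85700 to 149000 CPM, the count scaled to a common library size). Summed macrophage markers were lowest in old KO liver, at 143 to 216 CPM against 234 to 584 CPM in old WT and 181 to 412 CPM in young WT liver (10 of 10 markers detected, none at 0), and the part of such cells in the values below was not tested. From RNA of whole liver alone, fewer cells of a type and less RNA per cell cannot be told apart. By staining of liver sections, the paper reports less myeloid cell infiltration in old S6K1 KO than in old WT mice.

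None of the 9 genes passed the test for a change with age or with S6K1 deletion. Between old WT and young WT liver 0 of 9 passed an adjusted p of 0.05 (edgeR), where 18.8% of all genes tested passed. Between old KO and old WT liver 0 of 9 passed, where 0.533% of all genes passed, a share too small to read a count of 9 genes against. Between old KO and young WT liver 0 of 9 passed against 23.3% of all genes. At an unadjusted p of 0.05 the counts were 0, 0 and 1 of 9, against 33.0%, 11.6% and 36.8% of all genes. DESeq2 and limma voom also called 0 of 9 in each comparison. In no comparison did the 5 libraries of one group lie wholly above or below those of the other for any of the 9 genes, against 11.4%, 3.20% and 13.9% of all genes. The age and genotype comparisons share the old WT libraries, so their values are not independent. A p-value that misses the threshold does not show that the groups were alike, and the intervals given with each gene below mark how large a difference the data leave room for.

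**Figure D1:**
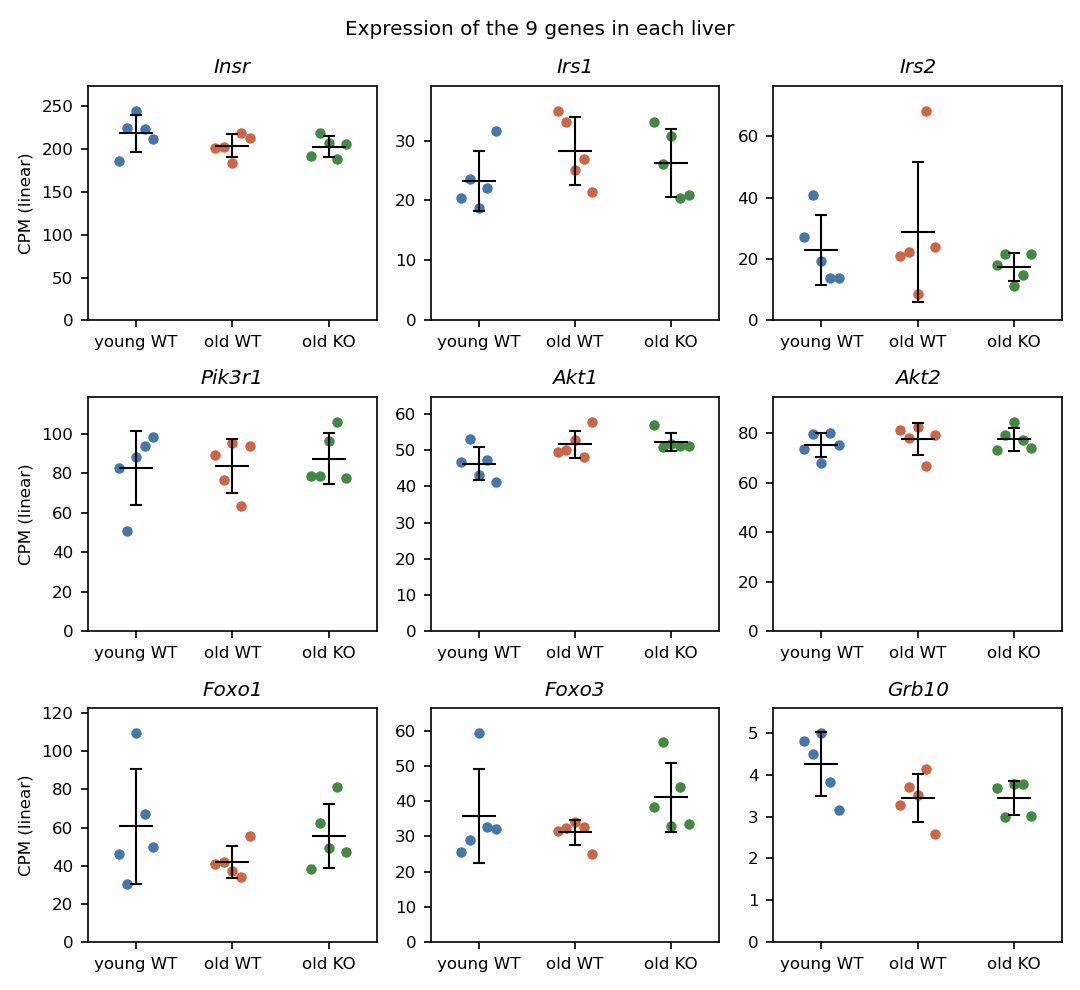
Expression of each of the 9 genes in each liver, with 1 panel per gene; the y axis is CPM on a linear scale from 0, points are single livers, and the horizontal line and whiskers are the group mean and SD (n = 5). The groups overlap in every panel, and Insr, Akt1 and Akt2 keep narrow ranges. Single livers stand above the rest for Irs2 (68.3 CPM in an old WT liver) and Foxo1 (109 CPM in a young WT liver). The same young WT liver is the highest for Foxo3 (59.3 CPM), close to an old KO liver at 56.7 CPM.

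Levels between genes were compared per kilobase of exon (RPKM), as means over the 15 livers with SD. Insr, the receptor, stood highest at 21.5 ± 1.70 RPKM, and its lowest liver (19.0 RPKM) lay above the highest liver of Akt1 (14.1 RPKM), the next gene. Akt1 (12.2 ± 1.08 RPKM), Pik3r1 (11.4 ± 1.94 RPKM), Akt2 (10.8 ± 0.709 RPKM) and Foxo1 (9.49 ± 3.72 RPKM) formed a middle tier whose ranges overlapped, with Akt1 above Pik3r1 in 9 of 15 livers, Pik3r1 above Akt2 in 11 and Akt2 above Foxo1 in 11. Irs2 (5.75 ± 3.65 RPKM) and Foxo3 (4.999 ± 1.39 RPKM) did not differ beyond their spread, with Irs2 the higher in 7 of 15 livers. Irs1 (2.84 ± 0.599 RPKM) lay under Foxo3 in all 15 livers. Grb10, an adaptor that binds the receptor and inhibits it, was lowest at 0.405 ± 0.0741 RPKM, and its range did not reach that of Irs1.

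**Figure D2:**
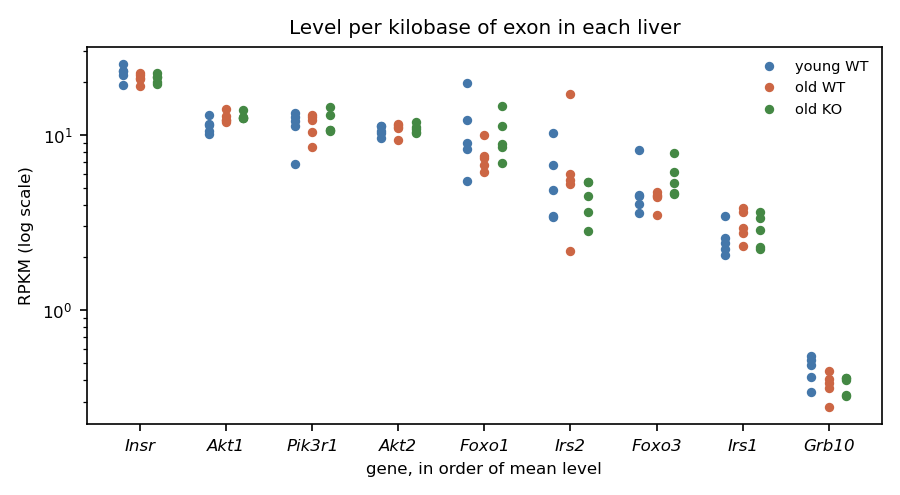
Level of the 9 genes per kilobase of exon in each liver, ordered by the mean over 15 livers; the y axis is RPKM on a log scale, and colours mark young WT, old WT and old KO livers. Insr stands apart at the top (19.0 to 25.2 RPKM) and Grb10 at the bottom (0.281 to 0.544 RPKM), while the genes between them overlap with their neighbours.

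The genes differed widely in how much they varied between livers of the same group. The spread within groups, pooled as the SD of log2 CPM, was 0.755 for Irs2, and 3.49% of all genes tested had a larger one. Foxo1 followed at 0.488 (14.9% of genes larger) and Foxo3 at 0.342 (30.2%). Irs1 (0.298), Pik3r1 (0.291) and Grb10 (0.234) lay near or above the median of all genes, 0.229. Insr (0.111), Akt1 (0.107) and Akt2 (0.102) were among the steadiest transcripts, with 90.7%, 92.0% and 93.5% of genes more variable. The Insr, Akt1 and Akt2 transcripts thus varied less between livers of the same group than most genes, and those of Irs2, Foxo1 and Foxo3 varied more than most.

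Insr (ENSMUSG00000005534, chromosome 8, 3150922 to 3279617, minus strand, NCBIM37, the assembly also called mm9) encodes the insulin receptor. Values of single livers are listed in the order of the library numbers, 1, 2, 3, 4 and 6 for young WT, 1, 4, 5, 7 and 10 for old WT and 1, 2, 4, 5 and 6 for old KO liver. In young WT liver Insr measured 186, 224, 244, 224 and 212 CPM (218 ± 21.1, SD, n = 5). In old WT liver the values were 201, 202, 184, 218 and 213 CPM (204 ± 13.2), and in old KO liver 192, 218, 207, 189 and 206 CPM (202.5 ± 11.96). The groups lay on top of each other, with the single highest liver among the young. The fitted log2 fold change was -0.10 with age (SE 0.0799, 95% interval -0.27 to 0.07, edgeR adjusted p = 0.414) and -0.01 with genotype (interval -0.18 to 0.16, adjusted p = 0.989). These intervals leave room for an Insr level in old WT liver between 0.831 and 1.05 times that of young WT liver.

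Irs1 and Irs2 encode the docking proteins that the receptor phosphorylates. Irs1 (ENSMUSG00000055980, chromosome 1, 82229676 to 82287991, minus strand) measured 20.3, 23.5, 18.8, 22.1 and 31.6 CPM in young WT liver (23.3 ± 5.001), 34.9, 33.1, 25.0, 26.9 and 21.4 CPM in old WT liver (28.3 ± 5.65) and 33.1, 26.1, 30.7, 20.4 and 20.9 CPM in old KO liver (26.2 ± 5.70). The old WT livers reached higher than the young, with 2 of 5 above every young liver, but the rest were interspersed. The age difference was 0.28 (SE 0.170, 95% interval -0.08 to 0.64, edgeR adjusted p = 0.263) and the genotype difference -0.11 (interval -0.47 to 0.25, adjusted p = 0.875), both as log2 fold changes.

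Irs2 (ENSMUSG00000038894, chromosome 8, 10986980 to 11008458, minus strand) was the most variable of the 9 genes. In young WT liver it measured 27.1, 40.9, 19.5, 13.7 and 13.8 CPM (23.0 ± 11.4). In old WT liver it measured 21.1, 22.2, 8.74, 68.3 and 24.1 CPM (28.9 ± 22.8), a range of 7.82-fold. In old KO liver it measured 18.01, 21.7, 11.3, 14.7 and 21.6 CPM (17.5 ± 4.50), a range of 1.92-fold. Both the highest and the lowest liver of the whole set were old WT, so the old KO livers lay wholly inside the old WT range. The fitted log2 fold change was 0.32 with age (SE 0.419, 95% interval -0.56 to 1.21, edgeR adjusted p = 0.626) and -0.72 with genotype (SE 0.424, interval -1.62 to 0.17, adjusted p = 0.538). Both differences rested on old WT 7, the liver at 68.3 CPM: without it the age difference turned to -0.27 (adjusted p = 0.610) and the genotype difference shrank to -0.13 (adjusted p = 0.928). Against young WT liver the old KO difference was -0.40 (adjusted p = 0.524), and -0.09 (adjusted p = 0.902) without young WT 2, the liver at 40.9 CPM.

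The liver with the most Irs2 was also at the top for some, not most, of the other transcripts that FOXO factors induce, a comparison made after the values had been seen. Of 20 FOXO-induced genes, old WT 7 was the highest of the 15 livers for 3, among the top 3 livers for 6 and among the bottom 3 for 4, and young WT 2 was among the top 3 for 7 and the bottom 3 for 4. A liver placed at random would be among the top 3 as often as among the bottom 3. Young WT 3, with Irs2 at 19.5 CPM, was the highest for 4 of the 20, among the top 3 for 8 and the bottom 3 for 2. No link of Irs2 with this list was tested. In old WT 7, Igfbp1, a secreted IGF binding protein, measured 461 CPM, the highest of the 15 livers, where the other old WT livers lay between 41.9 and 194 CPM. G6pc, which releases glucose from the liver, measured 1090 CPM there, also the highest. Pck1, the entry step of gluconeogenesis, measured 4631 CPM there, second to the 4976 CPM of young WT 3. Of 5 immediate early genes, which respond within minutes to many stimuli, 4 were at their highest in old WT 7: Jun (73.2 CPM), Junb (33.5 CPM), Egr1 (54.9 CPM) and Fos (6.23 CPM). Ier2 was highest in young WT 2 (27.8 CPM), above old WT 7. Young WT 2 came second for Jun (60.5 CPM) and Junb (22.2 CPM), but not for Egr1, where old WT 10 did (38.4 CPM), or Fos, where old WT 4 did (3.34 CPM). At the other end, old WT 5 had the least Irs2 (8.74 CPM) and the least Igfbp1 (41.9 CPM) of the old WT livers. Igfbp1 ranked the 5 old WT livers in the same order as Irs2, with livers 10, 4 and 1 at 194, 104.6 and 86.9 CPM. In old KO liver, liver 2 was highest and liver 4 lowest for both genes (Igfbp1 at 170 and 17.8 CPM), while the livers between were ordered differently. The young WT livers did not follow Irs2 in this way. Young WT 3 had the second highest Igfbp1 (434 CPM) and G6pc (866 CPM) with Irs2 at 19.5 CPM, and young WT 1, the liver next in Irs2 after old WT 7 and young WT 2 (27.1 CPM), had Igfbp1 at 78.0 CPM and Pck1 at 1776 CPM. Old WT 7 also stood apart from the other old WT livers over the whole table. The chi-square of the counts per degree of freedom was 75.5 to 118 in pairs with it, and 18.2 to 49.5 in pairs without it. Among young WT livers, pairs with young WT 6 were the farthest apart (74.7 to 98.4). How the values above relate to the distance of old WT 7 over the whole table was not tested, nor was what set them.

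Irs1 and Irs2 also share a feature of their promoters. In the RefSeq promoter windows (250 bases before to 50 after a start site, GRCm38.p6), which matched 8 of the 9 genes in 14 windows, 3 short motifs were searched on both strands: the forkhead motif GTAAACA, the insulin response motif CAAAACA and the E-box CACGTG, the last bound by factors such as SREBP1 and USF. Among all 32851 windows, GTAAACA occurred in 3.65%, CAAAACA in 6.28% and CACGTG in 7.15%, and CAAAACA and CACGTG occurred together in 0.408%. Irs1 and Irs2 each held this pair, and no window of Pik3r1, Akt1, Akt2, Foxo1, Foxo3 or Grb10 held either motif. The stretches below show it on the gene's own strand, where the insulin response motif reads TGTTTTG, from 130 bases to 1 base before the start site, with the motifs in capitals. They lie at chr1:82291440-82291569 (Irs1, minus strand) and chr8:11008930-11009059 (Irs2, minus strand).
Irs1: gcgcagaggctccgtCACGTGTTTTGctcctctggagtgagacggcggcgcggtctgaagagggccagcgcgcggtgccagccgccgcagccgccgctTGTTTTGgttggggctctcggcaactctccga
Irs2: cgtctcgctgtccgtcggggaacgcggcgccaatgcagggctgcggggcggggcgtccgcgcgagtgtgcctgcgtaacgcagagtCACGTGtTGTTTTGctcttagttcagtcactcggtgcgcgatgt
In Irs1 the E-box (-115 to -110) overlaps the first of 2 insulin response motifs (-111 to -105, and again at -32 to -26). In Irs2 the E-box (-44 to -39) is set off by a single base from its insulin response motif (-37 to -31). The shared letters describe the sequence alone, and the spread of Irs1 across livers (0.298) was far below that of Irs2 (0.755). Only the pair of CAAAACA and CACGTG was counted jointly, over windows not matched for the GC content of Irs1 (71.3%) and Irs2 (72.0%). Whether the pair is rare among windows of such GC content was not tested.

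Within a liver, the balance of Irs2 to Irs1 (log2 ratio of counts per kilobase) averaged 1.06 ± 0.811 in young WT, 0.92 ± 1.08 in old WT and 0.58 ± 0.576 in old KO liver. It was lowest in old WT 5, at -0.33, and highest in old WT 7, at 2.52, so that Irs2 ranged from below Irs1 to 5.76 times its level. The old KO against old WT difference was -0.34 (exact 2-sided permutation test over 5 against 5 livers, p = 0.571, adjusted p = 0.856 over 9 ratio tests), and the old against young WT difference was -0.14 (exact p = 0.810, adjusted p = 0.911). Neither exceeded the spread between livers.

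Pik3r1 (ENSMUSG00000041417, chromosome 13, 102450716 to 102538172, minus strand) encodes the main regulatory subunit of PI3K, the part that binds phosphorylated IRS proteins. It measured 82.7, 50.6, 88.1, 93.5 and 98.2 CPM in young WT liver (82.6 ± 18.8), 89.1, 76.6, 95.2, 63.3 and 93.9 CPM in old WT liver (83.6 ± 13.5) and 78.4, 78.8, 96.2, 105.8 and 77.6 CPM in old KO liver (87.4 ± 12.9). The group means lay close together, and a single low liver in each WT group set most of the spread. The log2 fold change was 0.02 with age (SE 0.160, 95% interval -0.32 to 0.36, edgeR adjusted p = 0.955) and 0.06 with genotype (interval -0.28 to 0.40, adjusted p = 0.931).

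Those 2 low livers, young WT 2 (50.6 CPM) and old WT 7 (63.3 CPM), were the same livers that stood highest in Irs2. Across the 15 livers Pik3r1 and Irs2 ran opposite to each other, with Pearson's r = -0.79 (permutation p = 0.00095, adjusted p = 0.0342 over the 36 pairs of the 9 genes) and Spearman's rho = -0.739 (permutation p = 0.00222, adjusted p = 0.0799). Of the 14257 tested genes other than Irs2, 12 (0.0842%), Pik3r1 among them, had an r with Irs2 of -0.79 or lower. The relation did not follow the groups, since deviations from the group means gave r = -0.795. Without the 2 livers farthest from the median of Irs2 (old WT 7 and old WT 5) r was -0.811, and without the 2 livers highest in Irs2 (old WT 7 and young WT 2) it was -0.619 over 13 livers (permutation p = 0.0253, unadjusted). No other pair among the 36 passed an adjusted p of 0.05, and the next strongest, Foxo1 with Foxo3, had r = 0.627 (permutation p = 0.0140, adjusted p = 0.253) and rho = 0.350.

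**Figure D3:**
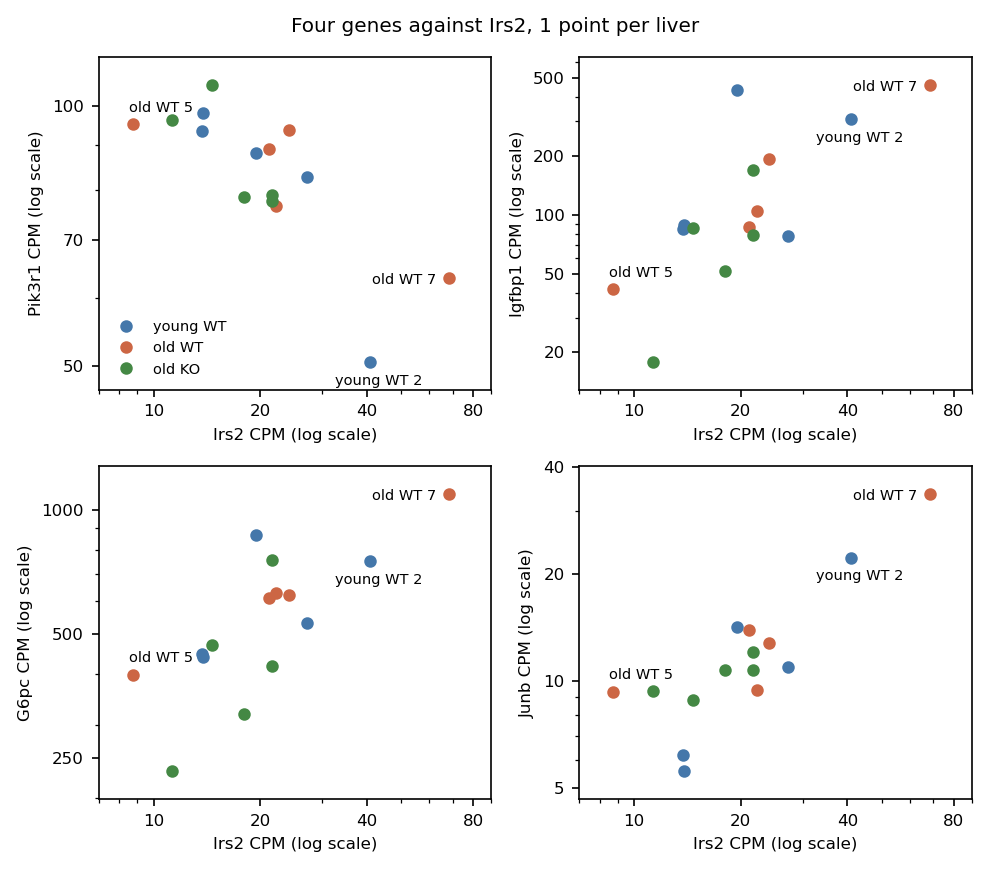
CPM of Pik3r1, Igfbp1, G6pc and Junb against CPM of Irs2 in each liver, with both axes on a log scale and colours for the groups; the livers lowest (old WT 5) and highest (old WT 7 and young WT 2) in Irs2 are named. Pik3r1 falls as Irs2 rises (r = -0.79 over 15 livers), and old WT 7 is at the top for Igfbp1 (461 CPM), G6pc (1090 CPM) and Junb (33.5 CPM).

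Akt1 (ENSMUSG00000001729, chromosome 12, 113892032 to 113913095, minus strand) and Akt2 (ENSMUSG00000004056, chromosome 7, 28376571 to 28425845, plus strand) encode the kinases that relay the lipid signal, AKT2 being the form most tied to glucose metabolism. Akt1 measured 46.8, 53.0, 43.1, 47.2 and 41.4 CPM in young WT liver (46.3 ± 4.48), 49.4, 49.9, 52.7, 48.2 and 57.7 CPM in old WT liver (51.6 ± 3.81) and 56.8, 50.8, 51.6, 51.2 and 51.2 CPM in old KO liver (52.3 ± 2.55). Apart from young WT 2, every young liver lay below every old liver of either genotype. The log2 fold change was 0.16 with age (SE 0.0748, 95% interval -0.0023 to 0.31, edgeR adjusted p = 0.157) and 0.02 with genotype (interval -0.14 to 0.18, adjusted p = 0.958). Between old KO and young WT liver it was 0.18 (interval 0.02 to 0.33, unadjusted p = 0.0319, adjusted p = 0.0995), the only difference of the 27 with an unadjusted p under 0.05, and without young WT 2 it was 0.23 with an adjusted p of 0.0402. An Akt1 promoter window held the only forkhead motif among the 9 genes' windows, shown in capitals on the gene's strand in 40 bases that begin 180 bases before the start site, at chr12:112675025-112675064 (minus strand).
Akt1: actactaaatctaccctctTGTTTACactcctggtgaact
A window of this kind holds the motif in 3.65% of all windows, and Akt1 was among the steadiest of the 9 genes.

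Akt2 measured between 68.0 and 79.9 CPM in young WT liver (75.3 ± 4.94), between 66.8 and 82.4 CPM in old WT liver (77.6 ± 6.27) and between 73.0 and 84.4 CPM in old KO liver (77.5 ± 4.62). It was the steadiest of the 9 transcripts and its group means hardly differed. The log2 fold change was 0.04 with age (SE 0.0726, 95% interval -0.11 to 0.20, edgeR adjusted p = 0.706) and 0.00 with genotype (interval -0.16 to 0.15, adjusted p = 0.998). The log2 ratio of Akt2 to Akt1 per kilobase averaged -0.10 ± 0.108 in young WT, -0.21 ± 0.116 in old WT and -0.23 ± 0.133 in old KO liver, so Akt1 was slightly the more abundant per length in most livers. The differences between groups were -0.12 with age (exact permutation p = 0.151), -0.02 with genotype (exact p = 0.802) and -0.14 for old KO against young WT (exact p = 0.103), with adjusted p of 0.585, 0.911 and 0.585. Without old KO 4 the last of these was -0.17 (exact p = 0.0317, unadjusted).

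Foxo1 (ENSMUSG00000044167, chromosome 3, 52072259 to 52154031, plus strand) and Foxo3 (ENSMUSG00000048756, chromosome 10, 41901647 to 41996561, minus strand) encode the forkhead factors that AKT inactivates. Foxo1 measured 46.1, 30.3, 109, 67.1 and 49.97 CPM in young WT liver (60.6 ± 30.3), 40.9, 42.2, 37.2, 34.0 and 55.4 CPM in old WT liver (41.9 ± 8.17) and 38.1, 62.4, 49.1, 81.1 and 47.2 CPM in old KO liver (55.6 ± 16.7). The old WT livers were the lowest and tightest group, yet all 5 lay within the young range. The log2 fold change was -0.53 with age (SE 0.274, 95% interval -1.11 to 0.05, edgeR adjusted p = 0.189) and 0.41 with genotype (SE 0.275, interval -0.17 to 0.99, adjusted p = 0.609). Without young WT 3, the liver at 109 CPM, the age difference was -0.20 (adjusted p = 0.592).

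Foxo3 measured 25.7, 28.9, 59.3, 32.8 and 32.2 CPM in young WT liver (35.8 ± 13.4), 31.7, 32.3, 34.1, 32.8 and 25.0 CPM in old WT liver (31.2 ± 3.58) and 38.4, 56.7, 33.0, 43.9 and 33.6 CPM in old KO liver (41.1 ± 9.74). In old KO liver 3 of 5 livers lay above every old WT liver, and the other two fell within the old WT range. The genotype difference was 0.40 (SE 0.1998, 95% interval -0.02 to 0.82, edgeR unadjusted p = 0.0632, adjusted p = 0.463) and the age difference -0.20 (interval -0.62 to 0.22, adjusted p = 0.519). Young WT 3 was the highest liver for both FOXO genes. Without it the age difference of Foxo3 was 0.07 (adjusted p = 0.777), and the old KO against young WT difference rose from 0.20 (adjusted p = 0.495) to 0.46 (adjusted p = 0.0390). The log2 ratio of Foxo1 to Foxo3 per kilobase was above 0 in every liver and averaged 1.07 ± 0.379 in young WT, 0.79 ± 0.435 in old WT and 0.79 ± 0.356 in old KO liver, with exact permutation p of 0.325 with age and 1.0 with genotype.

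Grb10 (ENSMUSG00000020176, chromosome 11, 11830511 to 11938686, minus strand) encodes an adaptor that binds the activated receptor and is stabilised by mTORC1. It was scarce, with 65 to 182 counts per library. It measured 4.79, 4.49, 4.99, 3.83 and 3.15 CPM in young WT liver (4.25 ± 0.756), 3.28, 3.70, 3.52, 4.14 and 2.57 CPM in old WT liver (3.44 ± 0.579) and 3.67, 2.98, 3.77, 3.77 and 3.02 CPM in old KO liver (3.44 ± 0.408). The young livers 1, 2 and 3 lay above every old liver of either genotype, while young livers 4 and 6 lay among the old. The log2 fold change was -0.31 with age (SE 0.153, 95% interval -0.63 to 0.02, edgeR unadjusted p = 0.0617, adjusted p = 0.173) and 0.00 with genotype (interval -0.33 to 0.33, adjusted p = 1.000). The means of the old groups were nearly equal, and the interval still allows a change of 0.796 to 1.26 times between them.

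**Figure D4:**
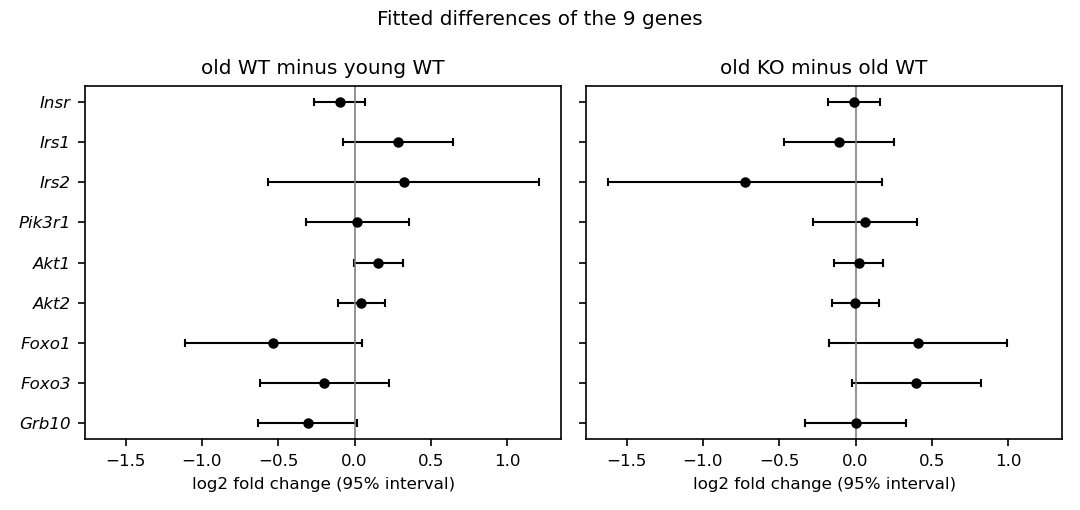
Fitted log2 fold change of each of the 9 genes with its 95% interval (edgeR quasi-likelihood fit over 15 libraries), for old WT minus young WT liver and for old KO minus old WT liver. All 18 intervals include 0, and those of Irs2 (-0.56 to 1.21 with age, -1.62 to 0.17 with genotype) are the widest, whereas those of Insr, Akt1 and Akt2 are the narrowest.

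The other genes of the pathway were counted in 6 lists that were drawn up with earlier results of these data known. With age, called counts were 1 higher and 0 lower of 8 tested further receptors and docking proteins. They were 1 higher and 2 lower of 17 PI3K, PDK1 and AKT pathway genes, which include kinases and other proteins. They were 3 higher and 5 lower of 19 negative regulators, and 1 higher and 1 lower of 12 FOXO paralogs and cofactors. Of 20 FOXO-induced genes 2 were higher and 2 lower (median log2 fold change -0.16), and of 10 genes that insulin induces in liver 4 were higher and 0 lower (median 0.74), where the median of all genes was 0.01. Among all genes tested, 9.92% were called higher and 8.91% lower with age. With genotype 0 genes were called in 5 of the lists and 1, lower, in the PI3K, PDK1 and AKT list. Among all genes tested, 0.112% were called higher and 0.421% lower.

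Of the 19 negative regulators, 8 were called with age in either direction and 11 were not. Grb14, which encodes the adaptor most closely related to GRB10 and inhibits the receptor in liver, fell by 0.67 on the log2 scale in old WT liver (SE 0.104, edgeR adjusted p = 0.000833), from 57.7 to 77.1 CPM in young WT to 37.5 to 52.1 CPM in old WT liver with no overlap. It measured 41.4 to 51.5 CPM in old KO liver (genotype difference 0.17, adjusted p = 0.569). Enpp1, a membrane enzyme reported to bind and inhibit the receptor, rose by 0.41 (SE 0.0672, adjusted p = 0.00123), again with no overlap between the age groups. Ptprf, a receptor-type phosphatase, rose by 0.56 (SE 0.158, adjusted p = 0.0230), a call lost without liver 1 of either age group or without old WT 5. Among enzymes further down, Ppp2ca, a catalytic subunit of the phosphatase that acts on AKT, fell by 0.30 (adjusted p = 0.0136), and the class II PI3K genes Pik3c2a and Pik3c2g fell by 0.42 (adjusted p = 0.0160) and 0.81 (adjusted p = 0.0180, lost without young WT 1).

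Foxo4, a paralog of Foxo1 and Foxo3, rose by 0.27 with age (SE 0.0687, edgeR adjusted p = 0.0144), from 24.2 to 27.4 CPM in young WT to 28.3 to 32.2 CPM in old WT liver. Of the FOXO-induced genes, Gadd45a, a stress-response gene, rose by 1.15 (adjusted p = 0.0115) and Pnpla2, which encodes the lipase that opens triglyceride stores, fell by 1.23 (adjusted p = 0.00140). Pnpla2 is also abundant in fat, and the 5 adipocyte markers summed to 14.5 to 119 CPM in young WT, 1.36 to 12.9 CPM in old WT and 0.936 to 5.52 CPM in old KO liver, with none at 0 in all libraries. Only Cidec among them had enough reads to be tested, and it was called lower with age (log2 fold change -3.21). The part of adipocytes in the Pnpla2 values was not tested. Of the insulin-induced genes, Scd1, the fatty acid desaturase, rose by 1.65 (adjusted p = 0.00475), Pklr, the liver pyruvate kinase, by 0.92 (adjusted p = 0.00693) and Insig1, a brake on sterol synthesis, by 1.503 (adjusted p = 0.0197, lost without young WT 1, young WT 2 or old WT 4). The genes named here were picked because they were called with age, as were 18.8% of all genes tested. Such a choice cannot show that genes around the 9 differ from the 9, and no test compared the 9 with these genes.

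The single pathway gene called with S6K1 deletion was Pik3cd, the PI3K catalytic subunit typical of leukocytes. It measured 6.65, 6.83, 5.43, 6.82 and 4.67 CPM in old WT liver and 3.89, 3.67, 2.44, 3.65 and 3.25 CPM in old KO liver, so the groups did not overlap, and it fell by 0.84 on the log2 scale (SE 0.164, edgeR adjusted p = 0.0337). With age it rose by 0.54 (SE 0.161, adjusted p = 0.0280). The genotype call was lost in 8 of 15 fits that left out a library (young WT 4, old WT 1, 4 or 7, and old KO 2, 4, 5 or 6) and the age call in 6 (young WT 1, 2 or 4, and old WT 1, 4 or 7). Pik3cd moved in the same direction as the macrophage markers, of which 10 of 10 were lower and 4 called in old KO against old WT liver (median log2 fold change -1.16). Summed T cell markers measured 4.41 to 13.4 CPM in old WT and 2.70 to 7.98 CPM in old KO liver, and the part of these cells in the Pik3cd values was not tested.

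Genes whose levels most resembled those of Insr, Irs2 and Grb10 across the 15 livers, by Pearson's r of log2 CPM and as a description only, were as follows. For Insr they were 2810429I04Rik (r = 0.832), Ccnl1 (r = 0.820) and Rmnd5a (r = 0.815). For Irs2 they were Zfp113 (r = 0.914), Tgif1 (r = 0.887) and Zfp821 (r = 0.850). For Grb10 they were Tgfbr2 (r = 0.872), Mgat5 (r = 0.855) and Ankrd16 (r = 0.854). All share the same libraries and scaling. Annotated genes overlap 5 of the 9 on the opposite strand, where strand was not stated for the counting. Of these, 4 had 0 counts in all libraries and the fifth, 9530052E02Rik at Irs2, had 0 to 7 counts per library against at least 264 for Irs2.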

How the data were processed

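Total RNA was extracted from flash-frozen livers and sequenced by the authors as 50-base reads. The submitters' processing notes name CASAVA, TopHat2 2.0.11, DESeq2 1.18.1 and the mm9 build. The authors counted reads per gene with HTSeq, whose strand setting was not given in the sources used here, and deposited raw counts per Ensembl gene for the 15 libraries. Here edgeR 4.0.16 (R 4.3.3) was fitted to these counts over all 15 libraries with TMM scaling and its expression filter, leaving 14258 genes, and the quasi-likelihood test was adjusted by Benjamini-Hochberg over all of them (threshold 0.05). CPM used TMM-scaled totals, log2 CPM a prior count of 2 and RPKM the merged exon length of GENCODE M1. SEs and 95% intervals were derived from the F statistic and its degrees of freedom. Ratios of gene pairs (prior count 0.5) were compared by exact permutation of 5 against 5 livers, where the smallest possible p is 0.00794, and correlations by 100000 permutations. The 9 genes and the pathway and marker lists were chosen with earlier results of these data known. Pathway genes are named if called with age or genotype, up to 12 per comparison by smallest adjusted p, with Pik3cd named in both, and the genes most alike were sought for Insr, Irs2 and Grb10 because no member was called. Groups followed the labels. Replicate numbers did not pair the livers: deviations of same-numbered libraries correlated between -0.153 and 0.0770. DESeq2 1.42.0, limma 3.58.1 (voom), other scalings and filters, and fits without each library were alternatives. The fit was checked on simulated counts. Library totals of 21801754 to 38065359 set the counting precision. RefSeq promoter windows are on GRCm38.p6 and are not compared with the mm9 positions. No window was found for Insr. Protein sequences were not used here.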

Additional observations from a re-analysis of the deposited data

Results flagged for a closer look

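Within groups of 5 livers, 5 of 36 values checked stood apart from the rest of their group by Dixon's criterion (gap to the nearest liver over the group's range above the 95% critical value), where chance alone gives about 1 in 20. Irs2 in old WT liver was highest in liver 7, at 68.3 CPM with the next at 24.1 CPM. Akt2 in old WT liver was lowest in the same liver 7, at 66.8 CPM with the next at 78.1 CPM. Foxo3 in young WT liver was highest in liver 3, at 59.3 CPM with the next at 32.8 CPM. Foxo3 in old WT liver was lowest in liver 10, at 25.0 CPM with the next at 31.7 CPM. Akt1 in old KO liver was highest in liver 1, at 56.8 CPM with the next at 51.6 CPM.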

How the results depend on the processing

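Each group held 5 livers, and the counts behind a value went down to 65 per library, for Grb10. Of 189 fold changes of the 9 genes under other scalings, filters, tools, samples or the replicate block, 178 kept direction and side of the threshold, 11 changed sign and 0 passed newly. None of the 11 passed the threshold, and the cause of the sign changes was not tested. They were, for genotype, Akt2 with DESeq2 size factors (0.0025), DESeq2 (0.00459) and voom (0.000867), and Grb10 with the same settings (0.00408, 0.00678 and 0.00864). With the replicate number as a block, which does not pair these livers, Irs2 (-0.0179), Pik3r1 (-0.0521) and Foxo3 (0.157) changed sign with age, Grb10 (0.0725) with genotype and Foxo1 (0.14) for old KO against young WT. Under that block 899 genes were called with age and 6 with genotype, 0 of the 9 genes among them, and the age calls of Pik3cd, Pik3c2g, Ptprf, Ppp2ca, Foxo4, Gadd45a and Insig1 and the genotype call of Pik3cd were lost. DESeq2 called 309 genes with genotype and voom 23, the latter without Pik3cd (adjusted p = 0.0522).

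Leaving out each library in turn gave 405 fold changes of the 9 genes, of which 375 kept direction and side of the threshold, 28 changed sign and 2 passed newly. The ranges of those that changed sign were, with age, -0.27 to 0.63 for Irs2, -0.12 to 0.11 for Pik3r1 and -0.30 to 0.0706 for Foxo3. With genotype they were -0.044 to 0.0122 for Insr, -0.0271 to 0.11 for Pik3r1, -0.012 to 0.0632 for Akt1, -0.0566 to 0.0197 for Akt2 and -0.0874 to 0.0686 for Grb10. For old KO against young WT they were -0.0531 to 0.15 for Pik3r1 and -0.30 to 0.20 for Foxo1. In that comparison 0 to 1 of the 9 genes was called, Akt1 without young WT 2 and Foxo3 without young WT 3, and in the others 0. All genes called ranged from 1748 to 3284 with age and from 9 to 108 with genotype. The log2 ratio of Irs2 to Irs1 ranged from -0.54 to 0.18 with age and from -0.66 to 0.0579 with genotype, that of Akt2 to Akt1 from -0.0575 to 0.0301 with genotype and from -0.17 to -0.0857 for old KO against young WT, and that of Foxo1 to Foxo3 from -0.12 to 0.18 with genotype. The r of Irs2 with Pik3r1 ranged from -0.823 to -0.765, an alternative added after the data had been seen.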
